A study of Mus musculus with 2 samples.

Results

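Slit ligands, their Robo receptors and the Srgap effectors were described as 9 mouse genes, Slit1, Slit2, Slit3, Robo1, Robo2, Robo3, Srgap1, Srgap2 and Srgap3, chosen by gene symbol from the 19202 Ensembl genes of a read-count table. All 9 had a row, and all 9 were among the 14586 genes whose level reached 1 CPM (counts per 1e6 reads, with libraries scaled by TMM, the trimmed mean of M-values) in the higher library. The table compared embryonic day 12 telencephalic tissue of H2AZcKO mice, a conditional knockout of the histone variant H2A.Z, with that of H2AZfl/fl mice, whose floxed allele can be deleted by Cre recombinase, both on the C57BL/6 background and with no treatment named. No label names the Cre line, so the cells in which the allele was deleted are unknown here. The tissue label reads telencephalon, while the dissection is described as cerebral cortex. Although triplicates were mentioned, the table held 1 count column per genotype, and whether a column pools embryos was not given. The differences below therefore had no replicate check, and no test of the genotype was run. Each ratio of H2AZcKO over H2AZfl/fl has an exact 95% interval computed from the counts, and this covers counting error alone; "below 1" or "above 1" refers to that interval.

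Slits are secreted proteins that repel or steer growing axons and migrating neurons. They bind the immunoglobulin-like part of Robo receptors, and heparan sulphate proteoglycans help to form the complex. Inside the cell, Slit-Robo GTPase-activating proteins (Srgaps) bind the Robo tail, act on small GTPases and bend the membrane through their inverse F-BAR domain. In the mouse forebrain, Slit1 and Slit2 with Robo1 and Robo2 guide corticofugal, thalamocortical and callosal axons, and Robo signalling also acts in cortical progenitors.

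H2afz, an H2A.Z gene and the one named in the header of the knockout column, had 1664 counts (191 CPM) in H2AZcKO and 2605 counts (289 CPM) in H2AZfl/fl, a ratio of 0.661 (0.621 to 0.703). The deleted exons are not given, so this whole-gene count does not measure the deleted stretch alone. Total counts were 8839840 in H2AZcKO and 8891198 in H2AZfl/fl, and a count of 0 would have allowed up to 0.344 and 0.333 CPM. Xist had 6384 counts in H2AZcKO and 200 in H2AZfl/fl, and the Y-linked Ddx3y had 0 and 249, so the libraries also differed in sex-linked RNA. All 9 Slit, Robo and Srgap genes are autosomal. Sex-linked RNA differed along with the genotype, so a part of embryo sex in their ratios cannot be told apart and was not tested.

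Among the ligands, Slit2 was lower in H2AZcKO while Slit1 and Slit3 were not distinguishable between the libraries. Slit1, the most abundant Slit here and a repellent made largely in the nervous system, had 788 counts (90.4 CPM) in H2AZcKO and 753 counts (83.5 CPM) in H2AZfl/fl, a ratio of 1.08 (0.978 to 1.198). Slit2, a repellent of the ventral forebrain and midline, had 275 counts (31.6 CPM) in H2AZcKO and 365 counts (40.5 CPM) in H2AZfl/fl, a ratio of 0.779 (0.664 to 0.914). Slit3, known for its part in diaphragm development in the mouse, had 31 counts (3.56 CPM) in H2AZcKO and 32 counts (3.55 CPM) in H2AZfl/fl, a ratio of 1.002 (0.591 to 1.70). The interval of Slit2 lay below 1, whereas those of Slit1 and Slit3 held 1. The calls of Slit2 and Slit1 changed under a correction for gene properties. With the trend of all genes on transcript length, GC content and level removed, the log2 interval of Slit2 reached 0 (log2 ratio −0.22, −0.46 to 3.2e-05). With the trend on genomic span removed, that of Slit1 lay above 0 (log2 ratio 0.15, 0.008 to 0.30). For Slit3 the interval did not exclude a 1.5-fold difference in either direction. Summed over the 3 ligands, 1094 counts in H2AZcKO stood against 1150 in H2AZfl/fl, a ratio of 0.984 (0.905 to 1.07), so the lower Slit2 was not visible in the total. In bulk tissue, fewer cells of a type and less RNA per cell cannot be told apart.

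**Figure D1:**
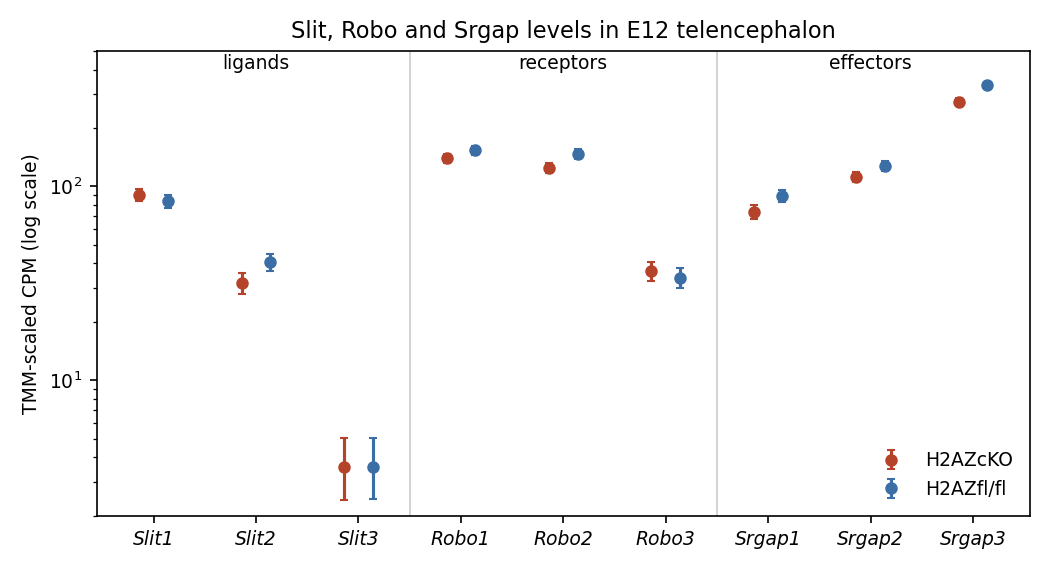
Level of each Slit, Robo and Srgap gene in the H2AZcKO library (left of each pair) and the H2AZfl/fl library (right), in TMM-scaled CPM on a log axis, with exact Poisson 95% intervals from the counts (1 library per genotype). Srgap3 is the highest in both libraries, at 273 CPM in H2AZcKO and 332 CPM in H2AZfl/fl, and Slit3 the lowest.

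Each of Slit2 and Slit3 also hosts, in an intron on its own strand, a gene for the microRNA miR-218, which is known to target Robo messages in vertebrates. RefSeq places the mature arm of Mir218-1 at chr5:48223966-48223986 and that of Mir218-2 at chr11:35616840-35616860 (GRCm38.p6, plus strand). Both give the same mature sequence, shown here because it joins ligand genes and receptor messages, with its seed (bases 2 to 8) in capitals. Below it stands the first match to that seed in the longest annotated 3′ UTR of Slit2, of the receptors Robo1 and Robo2, and of Srgap2. Each is taken from GENCODE M21 on the transcript strand, with the match AAGCACA in capitals. The genes shown all had an interval below 1. Matches in Srgap3 and in Robo3, whose interval held 1, are not shown.
mmu-miR-218-5p: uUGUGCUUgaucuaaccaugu
Slit2: caatactagcagAAGCACAtct
Robo1: ttttggttttaaAAGCACAatc
Robo2: ttatttggtgatAAGCACAaat
Srgap2: gggaaaaatccaAAGCACAact
The letters AAGCACA, searched on the transcript strand, were present in the 3′ UTR of 6 of the 9 genes, with 2 matches each in Slit2 and Robo2 and 1 each in Robo1, Robo3, Srgap2 and Srgap3. They were present in 16.4% of the 3′ UTRs of 13138 tested genes, and in 25.3% of the 4854 that are 1500 to 4500 bases long, a class that holds 5 of the 9 genes, 4 of them with a match. No row of the table held either microRNA gene, so miR-218 itself was not measured. Of the 6 genes with a match, Robo3 was the only 1 without an interval below 1, and Srgap1 had such an interval without a match. Over all genes tested, 11.2% had an interval below 1. The share was 29.6% for the 372 genes above 200 kb with at least 500 summed counts. It was not computed for all genes with a match, and a link between matches and ratios was not tested. A match is a description of the sequence and does not show a site in use.

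Of the receptors, Robo1 and Robo2 were lower in H2AZcKO, and Robo3 was not distinguishable. Robo1, a receptor of axons and of migrating cortical neurons, had 1213 counts (139 CPM) in H2AZcKO and 1381 counts (153 CPM) in H2AZfl/fl, a ratio of 0.909 (0.841 to 0.982). Robo2, which acts with Robo1 in cortical tracts and progenitors, had 1084 counts (124 CPM) in H2AZcKO and 1323 counts (147 CPM) in H2AZfl/fl, a ratio of 0.848 (0.782 to 0.919). Robo3, a divergent receptor that in mammals no longer binds Slits tightly and promotes midline crossing, had 318 counts (36.5 CPM) in H2AZcKO and 304 counts (33.7 CPM) in H2AZfl/fl, a ratio of 1.08 (0.922 to 1.27). Robo1 and Robo2 thus differed in the same direction with overlapping intervals, and Robo3 could not be placed on either side of 1. Receptor counts summed to 2615 in H2AZcKO and 3008 in H2AZfl/fl, a ratio of 0.899 (0.853 to 0.948). The Robo1 call was the weakest of the receptors: with the trend of all genes on genomic span removed its log2 ratio was −0.08, with an interval of −0.19 to 0.03.

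All 3 effectors were lower in H2AZcKO, and as a family they showed the lowest ratio of summed counts. Srgap1, which binds Robo1 and inactivates Cdc42, had 642 counts (73.7 CPM) in H2AZcKO and 804 counts (89.2 CPM) in H2AZfl/fl, a ratio of 0.826 (0.744 to 0.918). Srgap2, which shapes neurite branching and spine maturation in the mouse cortex, had 975 counts (112 CPM) in H2AZcKO and 1150 counts (128 CPM) in H2AZfl/fl, a ratio of 0.877 (0.805 to 0.956). Srgap3, also called WRP, which acts on Rac1 and restrains actin remodelling, had 2382 counts (273 CPM) in H2AZcKO and 2997 counts (332 CPM) in H2AZfl/fl, a ratio of 0.822 (0.779 to 0.868). No effector interval reached 1, although that of Srgap2 did with the trend of all genes on transcript length, GC content and level removed (log2 ratio −0.12, −0.24 to 0.006). The 3 intervals overlapped one another, so no order among them could be read. Effector counts summed to 3999 in H2AZcKO and 4951 in H2AZfl/fl, a ratio of 0.836 (0.801 to 0.871). That interval overlapped the one for the receptors, while it lay below the interval for the ligands.

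The stretches just upstream of the 3 effector starts are shown because all 3 had an interval below 1, as also did Slit2, Robo1 and Robo2. Whether these stretches bear on the ratios was not tested. Each is the 250 bases before the RefSeq start site (GRCm38.p6, minus strand of the genome, read towards the gene), with CpG dinucleotides in capitals. Srgap1 lies at chr10:122047316-122047565, Srgap2 at chr1:131527362-131527611 and Srgap3 at chr6:112947267-112947516.
Srgap1: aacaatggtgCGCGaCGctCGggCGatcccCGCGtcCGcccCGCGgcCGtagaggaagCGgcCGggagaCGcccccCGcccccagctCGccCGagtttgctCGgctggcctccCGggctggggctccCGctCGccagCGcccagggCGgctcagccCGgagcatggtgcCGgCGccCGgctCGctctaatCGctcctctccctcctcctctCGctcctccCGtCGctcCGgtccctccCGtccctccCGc
Srgap2: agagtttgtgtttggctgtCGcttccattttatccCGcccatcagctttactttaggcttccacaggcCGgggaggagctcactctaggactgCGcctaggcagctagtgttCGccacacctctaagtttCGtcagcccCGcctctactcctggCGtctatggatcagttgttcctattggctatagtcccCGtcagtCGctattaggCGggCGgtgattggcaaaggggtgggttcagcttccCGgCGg
Srgap3: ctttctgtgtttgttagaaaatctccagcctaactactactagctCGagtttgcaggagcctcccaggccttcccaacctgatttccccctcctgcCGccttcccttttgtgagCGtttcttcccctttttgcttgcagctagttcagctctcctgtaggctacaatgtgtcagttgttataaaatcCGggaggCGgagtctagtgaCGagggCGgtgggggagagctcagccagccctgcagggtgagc
They are unlike in CpG content, with 35 CpG dinucleotides before Srgap1, 14 before Srgap2 and 7 before Srgap3. Among 32851 RefSeq promoters the median was 6. At least as many as before Srgap1 were held by 2.97% of promoters, as before Srgap2 by 29.4% and as before Srgap3 by 46.3%. Slit3, whose interval held 1, also had 35 CpG dinucleotides, and Slit2 had 25. Robo1 had 11 and Robo3 had 12. Robo2 had 14 before its deposited start, and 4 and 8 before its further RefSeq starts. Searched on both strands, the letters TATAAA were present before Srgap3 and Slit2 and in 12.4% of promoters, and CCAAT was present before Srgap2 only, among the 8 genes with an entry, and in 33.8% of promoters. The letters GGGCGG were present 3 times before Srgap1, 2 times before Srgap2 and 1 time before Srgap3, and in 32.7% of promoters. They were also present 6 times before Slit3 and 3 times each before Slit2 and Robo3, and were absent before Robo1 and Robo2. No binding, methylation or H2A.Z occupancy was analysed here, and absence of a motif says only that these letters are not in this window. Slit1 had no entry.

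**Figure D2:**
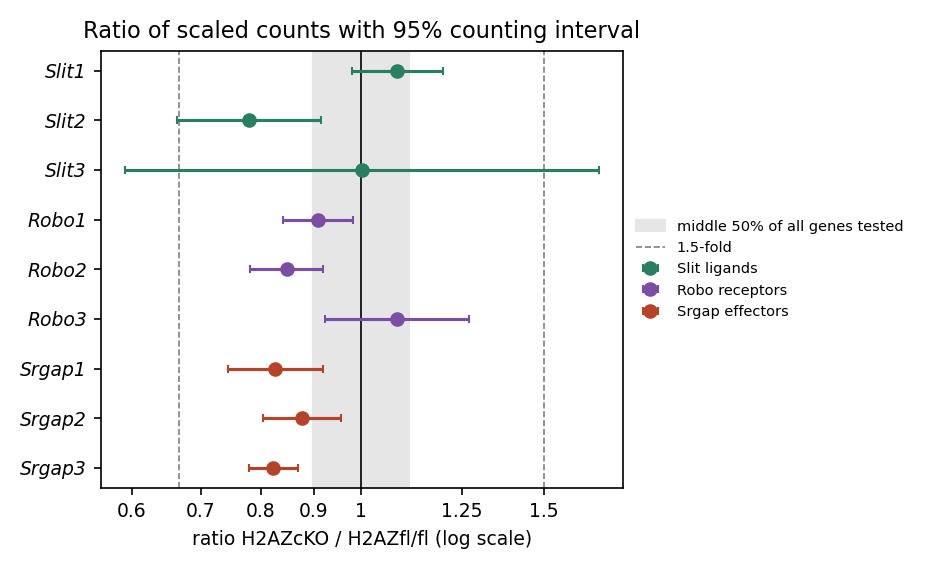
Ratio of H2AZcKO over H2AZfl/fl for each of the 9 genes on a log axis, with exact 95% counting intervals, coloured by role; the grey band holds the middle 50% of all genes tested and dashed lines mark 1.5-fold. The intervals of Slit2, Robo1, Robo2 and the 3 Srgap genes end below 1, and those of Slit1, Slit3 and Robo3 cross it.

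Read together, 6 of the 9 genes (Slit2, Robo1, Robo2, Srgap1, Srgap2 and Srgap3) had a log2 ratio below 0, on log2(CPM + 1), against 49.0% of all 14586 genes. The same 6 had a counting interval below 1, against 11.2% of all genes; with the trend on transcript length, GC content and level removed, 3 of them (Robo2, Srgap1 and Srgap3) did. No member had an interval above 1, where 12.6% of all genes did. Whether an interval leaves out 1 depends on the counts of a gene, and these shares over all genes are not matched for depth. Of the 372 genes above 200 kb with at least 500 summed counts, 29.6% had an interval below 1. The median log2 ratio of the 9 genes was −0.19, with 0.006 over all genes. The differences were small: none of the 9 was 1.5-fold lower or higher, while 3.03% of all genes were at least 1.5-fold lower and 1.92% at least 1.5-fold higher. Slit2 alone was lower by a log2 ratio of at least 0.32, as were 9.79% of all genes. Summed over the 9 genes, 7708 counts in H2AZcKO stood against 9109 in H2AZfl/fl, a ratio of 0.875 (0.849 to 0.902). In the authors' deposited table, 6 of the 9 genes were lower with an adjusted p under 0.05, by a test that is not given, against 5.97% of all 19202 genes. None was among the 172 genes marked significant in the authors' deposited table, a mark that equals an adjusted p under 0.05 with an absolute log2 of at least 1. The authors' fold changes follow from the same count columns, so these marks are not a separate check. The 19202 genes also include those below the level of 1 CPM.

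Within families, the balance of the ligands differed between the libraries and that of the receptors and effectors did so less clearly. Slit1 made up 72.0% (exact binomial interval, 69.3 to 74.7) of Slit counts in H2AZcKO and 65.5% (62.7 to 68.2) in H2AZfl/fl. Slit2 made up 25.1% (22.6 to 27.8) in H2AZcKO and 31.7% (29.1 to 34.5) in H2AZfl/fl, and neither of these pairs of intervals overlapped. Robo3 made up 12.2% (10.9 to 13.5) of Robo counts in H2AZcKO and 10.1% (9.05 to 11.2) in H2AZfl/fl, with intervals that overlapped. Robo1 held 46.4% in H2AZcKO and 45.9% in H2AZfl/fl, and Robo2 held 41.5% and 44.0% in the same order. The effectors kept closely similar shares, with Srgap3 at 59.6% of Srgap counts in H2AZcKO and 60.5% in H2AZfl/fl and overlapping intervals for all 3. These are shares of counts, which also depend on transcript length.

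**Figure D3:**
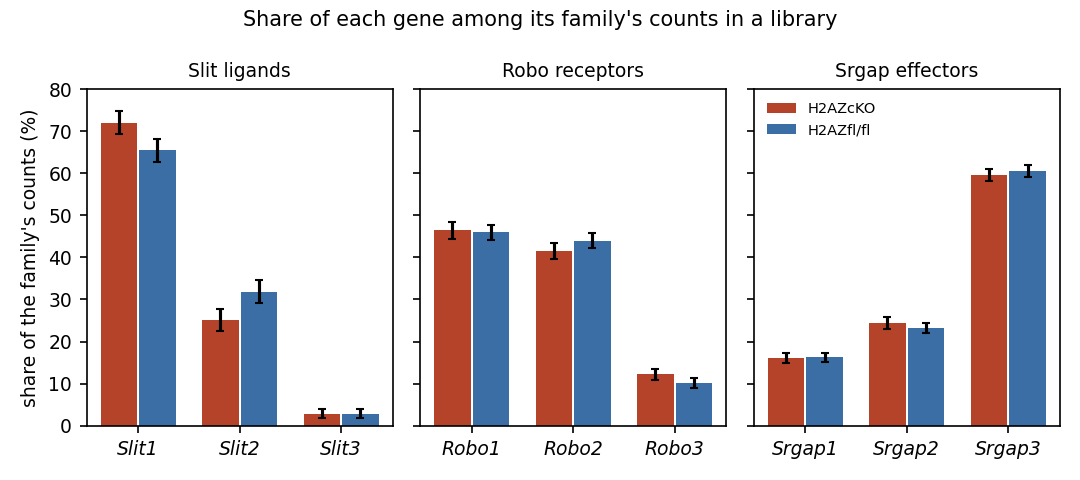
Share of each family's counts (percent) taken by each of its 3 genes, with the H2AZcKO library left of the H2AZfl/fl library in each pair and exact binomial 95% intervals. The Slit1 share is higher and the Slit2 share lower in H2AZcKO, and the Srgap shares differ little.

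Levels were compared between genes per kilobase of the longest annotated transcript. On this scale, CPM per kilobase, Srgap3 was the most abundant, at 30.8 in H2AZcKO and 37.4 in H2AZfl/fl, and Slit3 the least, at 0.680 in H2AZcKO and 0.679 in H2AZfl/fl. In H2AZcKO the order below Srgap3 was Robo1 (18.4), Slit1 (15.9), Robo2 (14.5), Srgap2 (13.9), Srgap1 (9.46), Robo3 (7.30) and Slit2 (3.17). In H2AZfl/fl it was Robo1 (20.2), Robo2 (17.1), Srgap2 (15.9), Slit1 (14.7), Srgap1 (11.5), Robo3 (6.74) and Slit2 (4.06). Slit1 was thus the third gene in H2AZcKO and the fifth in H2AZfl/fl, but its interval overlapped that of a neighbour in each library, Robo2 in H2AZcKO and Srgap2 in H2AZfl/fl. Robo2 and Srgap2 also overlapped in both libraries. With the length of all exons merged, Srgap3 stayed first and Robo3, Slit2 and Slit3 stayed last, while the order between them changed, with Slit1 second in both libraries (15.3 in H2AZcKO and 14.1 in H2AZfl/fl). The levels of Slit2 (1.24 in H2AZcKO and 1.59 in H2AZfl/fl), Robo1 (8.43 and 9.28), Robo2 (7.32 and 8.64) and Srgap2 (8.91 and 10.2), given in the same order, then moved by over 1.5 times.

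The 9 genes also differ in size, which was not used to choose them. In the positions of the deposited table, which match GRCm38, Slit1 lies on chromosome 19 at 41600257 to 41743665 (minus strand), Slit2 on chromosome 5 at 47983138 to 48307733 (plus) and Slit3 on chromosome 11 at 35121224 to 35708507 (plus). Robo1 lies on chromosome 16 at 72663149 to 73046095 (plus), Robo2 on the same chromosome at 73892306 to 74411825 (minus) and Robo3 on chromosome 9 at 37415669 to 37433163 (minus). Srgap1 lies on chromosome 10 at 121780991 to 122047315, Srgap2 on chromosome 1 at 131285251 to 131527352 and Srgap3 on chromosome 6 at 112717971 to 112947266, all on the minus strand. Robo3, at 17.5 kb, is the compact gene of the set, Slit1 spans 143 kb and the other 7 span over 200 kb, up to 587 kb for Slit3. Further start sites of Robo2 in RefSeq lie 680945 and 1035468 bases upstream of its deposited start, outside the deposited interval. GENCODE starts Robo1 at 72308306, also outside the deposited interval. Exons of Srgap1 overlap those of Gm48804 on the same strand, which has no row here. Exons of Srgap3 overlap those of Gm44081, a long non-coding RNA on the opposite strand, which had 5 counts in each library.

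Long genes as a class had slightly lower ratios in H2AZcKO. The median log2 ratio was 0.04 over 6830 genes of up to 20 kb, −0.008 over 5659 genes of 20 to 100 kb, −0.05 over 1239 genes of 100 to 200 kb and −0.06 over 858 genes above 200 kb. Of the 7 Slit, Robo and Srgap genes above 200 kb, 6 had a log2 ratio below 0, against 61.2% of that class. The median of these 7 was −0.24, and 4 of them lay below the lower quartile of the class, at −0.22. An interval below 1 was found for 6 of the 7, against 19.3% of the class. These 6 have at least 500 summed counts, and Slit3 does not. Of the 372 genes of the class with at least 500 summed counts, 29.6% had an interval below 1. That level was chosen after the values were seen. The 2 members up to 200 kb, Slit1 and Robo3, were the 2 with a log2 ratio of 0.11.

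With the span trend removed, the intervals of Slit2, Robo2 and the 3 Srgap genes still lay below 1, that of Robo1 did not, and that of Slit1 lay above 1. With a trend on transcript length, GC content and level removed instead, only Robo2, Srgap1 and Srgap3 kept an interval below 1. The log2 ratio of Robo1 was then −0.08 (−0.19 to 0.03). How much of the differences goes with gene length or span was not tested beyond these fits.

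**Figure D4:**
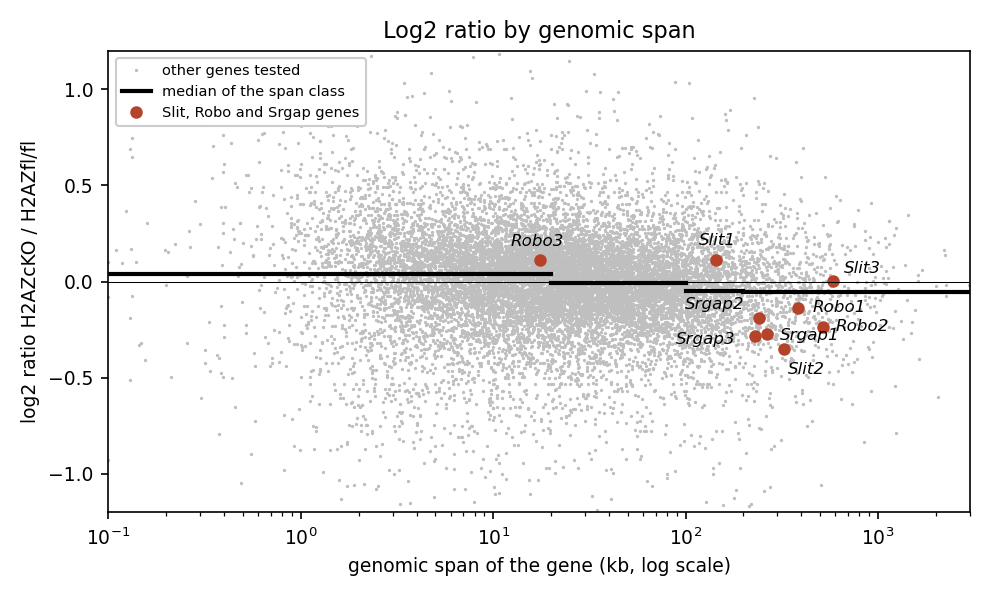
Log2 ratio of H2AZcKO over H2AZfl/fl, on log2(CPM + 1), against the genomic span of each gene in kilobases (log axis), with the 9 Slit, Robo and Srgap genes in red, the other genes tested in grey and black lines at the median of each span class. Of the 14586 genes, 67 lie outside the plotted range of log2 ratio (±1.2) or of span. Of the 7 members above 200 kb, 6 lie below the class median of −0.06.

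The other genes of the pathway lay on both sides of 1. Of 32 genes for further receptors, ligands, adaptors, GTPases and heparan sulphate enzymes, all 32 were tested. There were 14 log2 ratios above 0 and 18 below it, where 49.0% of all genes lay below 0, and the median was −0.02. Intervals lay above 1 for 7 genes, where 12.6% of all genes did, and below 1 for 5, where 11.2% of all genes did. They held 1 for 20. None was 1.5-fold different, where 3.03% of all genes were at least 1.5-fold lower and 1.92% at least 1.5-fold higher. These shares over all genes are not matched for depth. Only 4 of these 32 genes span over 200 kb, against 7 of the 9 members, and the difference between the lists was not tested. Among the 6 with the largest absolute log2 ratio, Abl2, a tyrosine kinase of the Abl family that acts downstream of Robo in Drosophila, had 384 counts in H2AZcKO and 513 in H2AZfl/fl, a ratio of 0.774 (0.677 to 0.886). Plxna1, a plexin that in the mouse binds a C-terminal Slit fragment, had 1821 counts in H2AZcKO and 2175 in H2AZfl/fl, a ratio of 0.866 (0.813 to 0.922). Dag1, which encodes dystroglycan, an extracellular Slit-binding protein, had 882 counts in H2AZcKO and 1050 in H2AZfl/fl, a ratio of 0.869 (0.794 to 0.951). Abl2, Plxna1 and Dag1 thus lay on the lower side with Slit2, Robo1, Robo2 and the Srgaps.

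Nell2, a ligand of Robo3 in the mouse, was on the other side, with 1955 counts in H2AZcKO and 1729 in H2AZfl/fl, a ratio of 1.17 (1.10 to 1.249). Ndfip2, an adaptor of Nedd4-type ubiquitin ligases, had 434 counts in H2AZcKO and 389 in H2AZfl/fl, a ratio of 1.15 (1.004 to 1.33). Nell1, a relative of Nell2, had 31 counts in H2AZcKO and 43 in H2AZfl/fl, and its interval of 0.454 to 1.21 held 1. Small GTPases that regulate the actin cytoskeleton were singled out after their values were seen: Cdc42 had a ratio of 1.14 (1.08 to 1.19), Rhoa 1.08 (1.002 to 1.16) and Rac1 1.03 (0.972 to 1.09). Robo4, the endothelial Robo and also singled out afterwards, had 70 counts in H2AZcKO and 83 in H2AZfl/fl, a ratio of 0.873 (0.626 to 1.21).

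**Figure D5:**
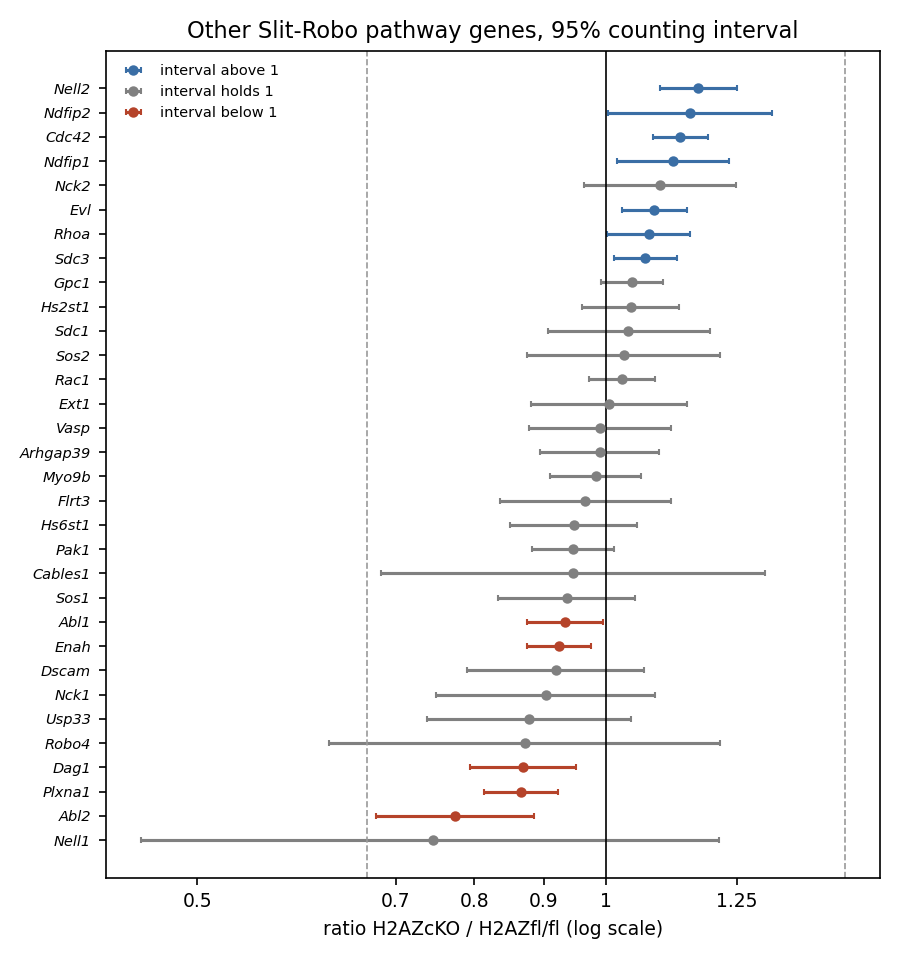
Ratio of H2AZcKO over H2AZfl/fl (log axis) with exact 95% counting intervals for the 32 other genes of the pathway, sorted by ratio; the solid line marks a ratio of 1 and dashed lines mark 1.5-fold. Intervals end below 1 for 5 genes and start above 1 for 7.

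Markers of some regions and other cells also stood apart between the libraries, while those of others did not; the shares of all genes given above, 49.0% below 0, 11.2% with an interval below 1 and 12.6% with one above 1, are the background for these counts. All 8 ventral telencephalon markers had intervals above 1, summing to 1482 CPM in H2AZcKO and 1121 CPM in H2AZfl/fl, led by Lhx8 and Nkx2-1 with ratios of 1.93 and 1.58. Of 11 tested diencephalon and hypothalamus markers, all were below 0 and 8 had intervals below 1, with the list of 12 summing to 192 CPM in H2AZcKO and 287 CPM in H2AZfl/fl. Nkx2-4 was at 0 counts in H2AZcKO and 25 in H2AZfl/fl, Rax at 0 and 9, and Nkx2-2 at 5 and 44. Cajal-Retzius markers had intervals below 1 for 4 of 6 (285 CPM in H2AZcKO and 328 CPM in H2AZfl/fl), and all 5 tested blood markers had intervals above 1 (614 and 320 CPM over the list). Most intervals of the other lists held 1. Hem, choroid plexus and midline markers had intervals below 1 for 2 of 7 tested (25.01 CPM in H2AZcKO and 35.6 CPM in H2AZfl/fl), and meningeal markers for 2 of 6 (14.8 and 19.7 CPM). All 8 endothelial intervals held 1 (124 CPM in H2AZcKO and 132 CPM in H2AZfl/fl). Intervals lay above 1 for 3 of 7 microglial markers (34.2 CPM in H2AZcKO and 22.0 CPM in H2AZfl/fl) and 3 of 8 dorsal telencephalon markers (2389 and 2293 CPM). The part of tissue make-up in the Slit, Robo and Srgap ratios was not tested.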

How the data were processed

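RNA sequencing measured 1 sample of H2AZcKO and 1 of H2AZfl/fl telencephalic tissue, whose groups come from the genotype labels. The column headed WT was taken as H2AZfl/fl, the only other genotype. The deposited counts are whole reads per Ensembl gene, per the file headers. The deposited CPM columns are the authors' scaling of these counts, and the authors' fold change and log2 fold change follow from them. How the authors computed their deposited p-value columns is not stated. Bowtie2 2.2.3, TopHat2 2.0.12, HTSeq 0.6.0 and mm9 are named, with no role or order, per the submitters' processing notes. The deposited positions instead overlap the same gene in GENCODE M21 (GRCm38) for 99.99% of matched genes and are identical for 79.1%. Symbols were matched by identifier for 19112 genes. Neither strand use nor the handling of reads with several matches is stated.

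Libraries were scaled with TMM (edgeR 4.0.16, R 4.3.3). Log2 ratios are H2AZcKO over H2AZfl/fl on log2(CPM + 1) for genes at 1 CPM or more in the higher library, which understates differences of low genes. Printed ratios carry no pseudocount and have Clopper-Pearson 95% intervals. The log2 intervals printed with a trend removed carry no pseudocount either, while the log2 ratios beside them are on log2(CPM + 1). A count of 0 stayed 0 in ratios and log2 ratios, and the CPM that it would have allowed was computed from 3 counts. The intervals and this limit cover counting error only: without molecular identifiers, reads can be copies of 1 molecule. With 1 library per genotype no p-value was computed. Intervals used scipy 1.17.1, tables pandas 2.3.3 and numpy 2.4.6, and figures matplotlib 3.10.9, all in Python 3.11.15, and the interval code was tested on simulated data. DESeq2 1.42.0 gave size factors for an alternative. Trends on length, GC content, level and span were removed across all genes as alternatives.

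The members and lists were chosen with earlier results of these data known. Genes named are the 9 members, H2afz, the 6 other pathway genes with the largest absolute log2 ratio, and up to 2 such genes per marker list; Rax, Xist, Ddx3y, Cdc42, Rhoa, Rac1 and Robo4 fall outside this rule, and their values were seen before they were named.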

Additional observations from a re-analysis of the deposited data

How the results depend on the processing

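Under pseudocounts of 0.1 and 5 CPM, a floor of 5 CPM or none, scaling by DESeq2 size factors, by total count, by TMM over autosomal genes or by the deposited CPM, and removal of the trends on gene properties, no member with an interval apart from 1 changed the sign of its log2 ratio. The sign of Slit3, whose interval holds 1, was negative under scaling by total count, DESeq2 size factors and the deposited CPM, which makes 7 members below 0 in place of 6. Slit3 was not tested under the floor of 5 CPM. The number of members with an interval below 1, which is 6 in the report, was 3 with the trend on length, GC content and level removed and 5 with the span trend, or all 4 trends together, removed; the last was chosen after the data were seen. At a smaller size, a log2 ratio of 0.32, 1 member passed, Slit2, against 0 at 1.5-fold and 0 at 2-fold. The members' median log2 ratio ranged from −0.23 to −0.12. Total-count scaling moved the median of all genes to a value 0.04 lower on the log2 scale. Depth limits Slit3 most, with 31 counts in H2AZcKO and 32 in H2AZfl/fl. No paired analysis was possible because each genotype has 1 library. Leaving out a replicate was not possible for the same reason.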
